A study of Mus musculus with 2 samples.

Results

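The EGR and NR4A immediate-early factors were taken as a fixed list of 7 genes, Egr1, Egr2, Egr3, Egr4, Nr4a1, Nr4a2 and Nr4a3, and were followed by name through both libraries of the series. These are 7 of the 31054 features of the normal library and 7 of the 32285 features of the wounded library, and each symbol carried the same gene identifier in both. Single cells came from the mouse anorectal junction, where the stratified epithelium of the anal canal meets the glandular epithelium of the rectum at a transition zone (TZ). The normal library held cells of unwounded mice and the wounded library cells prepared 1 week after a wound made with EDTA in the rectal crypts next to the TZ. All mice were of strain C57/BL6J and carried K17CreERT2;R26RGFP, a tamoxifen-inducible Cre under the Krt17 promoter with a fluorescent reporter, and mice of both conditions received tamoxifen. Each library pooled at least 5 mice, so that the spread between animals was not measured and each condition is 1 library. Cells had been dissected, digested with collagenase and sorted by Epcam and GFP, and libraries were made with the 10x 3' protocol. The sort also excluded cells with immune, endothelial or fibroblast surface markers.

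Immediate-early genes are transcribed within minutes of a growth factor, calcium, injury or stress signal, without new protein synthesis, and their mRNAs are short-lived. Egr1 to Egr4 encode zinc-finger transcription factors that bind GC-rich DNA, and the products of Egr1 to Egr3 are held back by the corepressors Nab1 and Nab2. Nr4a1 (Nur77), Nr4a2 (Nurr1) and Nr4a3 (Nor1) encode orphan nuclear receptors that act without a known physiological ligand, and Nr4a1 and Nr4a2 can pair with retinoid X receptors. The serum response factor SRF with its ETS-family partners acts on EGR genes through CArG boxes, and CREB acts on NR4A genes through cAMP response elements (CRE). In stratified epithelia these factors are known from wound edges and from the switch out of the basal layer, where Egr2 and Egr3 are tied to differentiation. The same genes are also known to be induced while tissue is digested into single cells.

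On GRCm38 with the GENCODE M21 annotation, Egr2 is at chr10:67535475-67542188, Egr3 at chr14:70077203-70082614, Nr4a1 at chr15:101254269-101274795 and Nr4a3 at chr4:48045153-48086447, all on the plus strand. Egr4 at chr6:85511121-85513589 and Nr4a2 at chr2:57106830-57124003 are on the minus strand. No pair of them is neighbouring, and each is counted from its own 3' end.

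Upstream sequence is shown for Nr4a1, Nr4a3 and Egr4, each highest in Regeneration cells and next in normal Basal cells among the named clusters, for Egr2, whose levels followed another order, and for Nr4a2, which was barely detected. RefSeq promoter windows of GRCm38.p6 were held for 5 of the 7 members (9 windows, 5 of them for Egr2). The sequences run 5′ to 3′ on the gene's strand over bases before the RefSeq start, and stop before any exon of the annotation. Capitals mark the CRE core TGACG on either strand, so that CGTCA is the core on the other strand, and, in Egr2, the CArG box as well.
Nr4a1, chr15:101266596-101266845, plus strand: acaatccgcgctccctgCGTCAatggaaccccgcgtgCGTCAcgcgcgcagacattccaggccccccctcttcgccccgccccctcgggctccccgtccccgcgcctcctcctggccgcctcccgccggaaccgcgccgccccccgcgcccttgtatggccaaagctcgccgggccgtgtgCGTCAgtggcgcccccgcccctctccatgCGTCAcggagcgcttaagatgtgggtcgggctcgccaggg
Nr4a3, chr4:48045055-48045152, plus strand: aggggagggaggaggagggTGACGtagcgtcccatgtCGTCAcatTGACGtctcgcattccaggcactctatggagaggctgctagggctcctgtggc
Egr4, chr6:85513590-85513839, minus strand: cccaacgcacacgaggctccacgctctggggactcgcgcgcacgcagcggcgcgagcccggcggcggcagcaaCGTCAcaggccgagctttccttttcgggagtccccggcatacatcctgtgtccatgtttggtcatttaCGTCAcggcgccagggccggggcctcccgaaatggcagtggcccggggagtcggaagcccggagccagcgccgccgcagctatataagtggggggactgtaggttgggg
Egr2, chr10:67537619-67537868, plus strand: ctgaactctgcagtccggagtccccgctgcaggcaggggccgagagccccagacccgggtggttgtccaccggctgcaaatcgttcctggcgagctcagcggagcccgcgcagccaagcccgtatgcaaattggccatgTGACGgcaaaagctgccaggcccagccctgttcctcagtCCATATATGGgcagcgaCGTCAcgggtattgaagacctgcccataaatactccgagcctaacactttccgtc
Nr4a2, chr2:57124004-57124253, minus strand: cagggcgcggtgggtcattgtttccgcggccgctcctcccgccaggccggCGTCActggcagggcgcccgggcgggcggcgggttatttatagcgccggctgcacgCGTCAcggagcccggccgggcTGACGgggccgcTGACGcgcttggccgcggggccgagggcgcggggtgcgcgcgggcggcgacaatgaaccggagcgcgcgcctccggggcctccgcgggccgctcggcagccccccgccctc

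The Nr4a1 sequence holds 4 CRE cores, which begin 233, 213, 69 and 40 bases before the start. Nr4a2 holds 4 and the shown stretch of Nr4a3 holds 3, while the full Nr4a3 window of 250 bases holds 4. The 32851 windows of all genes outside chr18 were searched over the 250 bases before the start and on both strands. Of these, 17.8% hold at least 1 core, 3.90% at least 2 and 0.688% at least 3. Egr4 holds 2, and the Egr2 window shown holds 2 with a CArG box between them, 72 bases before the start. Of the 5 Egr2 windows, 3 overlapping ones hold these matches, 1 holds a CArG box and no core, and 1 holds neither. The CArG box occurs in 1.47% of all windows. The full CRE TGACGTCA, which contains the core on both strands, occurs in 1.55% of all windows, and the NR4A element AAAGGTCA in 1.34%, and neither is in a member's window. These matches describe letters and not binding. The barely detected Nr4a2 carried as many cores as Nr4a1.

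The normal library held 2564 barcodes and 17617944 unique molecular identifiers (UMIs, one per captured mRNA molecule), and the wounded library 17216 barcodes and 88260050 UMIs. After the filters of the study, 1548 and 5225 cells passed, of which 938 and 4147 carried a cluster name in the authors' table. The mitochondrial limit was failed by 1003 normal and 11900 wounded barcodes. A further normal cell with a name did not pass and was kept, which gives 939 named normal cells. Passing cells without a name numbered 610 in the normal and 1078 in the wounded library and are called cells outside the authors' table. The median UMIs per named cell were 9724 and 10077, and the median mitochondrial shares were 4.77% and 8.50%. The libraries shared 1 barcode, and none among the analysed cells.

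Names did not mean the same cells in the 2 libraries. Over 11572 genes, with all immediate-early genes left out, the profile of wounded Basal cells correlated with normal Anal Canal cells (r = 0.787) and not with normal Basal cells (r = -0.198). Krt13, a keratin of the anal canal, stood at 812 CPM (UMIs of a gene per 1e6 UMIs of its cluster) in normal Anal Canal and 1443 CPM in wounded Basal cells, against 2.96 CPM in normal Basal cells. Normal Basal cells were most like wounded Regeneration cells (r = 0.655), and next like Wound_Stress cells (r = 0.476). Rectum (r = 0.851) matched by name, and so did Suprabasal taken as a whole (r = 0.835). The wounded Suprabasal cells were mixed. Of these 1032 cells, 512 fell into a cluster most like normal Basal cells when clusters were rebuilt, as described below. Hybrid cells matched no normal cluster (r at most 0.102), and their gut hormone cell list summed to 19263 CPM, against 902 CPM in normal Basal cells and at most 88.0 CPM in the other named clusters. The Rectum clusters carried the glandular keratin Krt8 (2741 and 2386 CPM). After a sort that excluded immune markers, no named cluster exceeded 15.6 CPM over the immune list. The anal gland list summed to 3106 CPM in Regeneration and 1989 CPM in Wound_Stress cells, against 284 to 732 CPM in the other named clusters, and its part in the results was not tested.

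Levels are summed UMIs of a cluster divided by its summed UMIs of all genes, in CPM, with exact 95% Poisson intervals. UMIs of 3' ends count molecules, so levels were not divided by gene length. The intervals cover counting error only, and with 1 library per condition no p-value was computed. Clusters were formed by the authors on the expression of the same cells, so ratios between clusters describe them. A summed level cannot tell fewer expressing cells from less RNA per cell. For this reason the share of cells with a UMI is given too, after each cell was thinned to 2000 UMIs. Shallower cells were left out of these shares, above all 132 of the 316 Hybrid cells, whose median was 2390 UMIs. No cell type here is known to lack these genes, and the shares in wounded Basal and normal Anal Canal cells serve as the nearest to background. They were not the lowest for every member, as none of the 60 thinned normal Rectum cells held Egr2.

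Egr1, the most abundant member, lies on the plus strand at chr18:34859823-34864984. Among the named clusters it was highest in wounded Regeneration cells and next in normal Basal cells. Its level was 1182 CPM (1163 to 1201) in Regeneration and 389 CPM (366 to 413) in normal Basal cells. In wounded Suprabasal and Hybrid cells it was 224 CPM (215 to 232) and 214 CPM (192 to 239), with overlapping intervals. The next values, 120 CPM in wounded Rectum, 96.4 in normal Suprabasal and 89.5 in normal Rectum cells, overlapped from neighbour to neighbour. The lowest were normal Anal Canal cells at 60.5 CPM (53.4 to 68.2), Wound_Stress cells at 57.9 CPM (52.6 to 63.6) and wounded Basal cells at 32.8 CPM (28.2 to 37.8). Among thinned cells, 79.7% (77.1 to 82.2) of Regeneration cells held an Egr1 UMI, against 33.3% of normal Basal, 23.8% of wounded Suprabasal and 6.03% of wounded Basal cells. Egr1 was thus spread over most Regeneration cells, with a median of 14 UMIs per cell (quartiles 7 and 21), and over fewer normal Basal cells, with a median of 1 (quartiles 0 and 5) and up to 79 UMIs in a single cell. The 10% of cells richest in Egr1 held 26.3% of the Egr1 UMIs in Regeneration, 50.5% in normal Basal and 79.8% in wounded Basal cells.

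**Figure D1:**
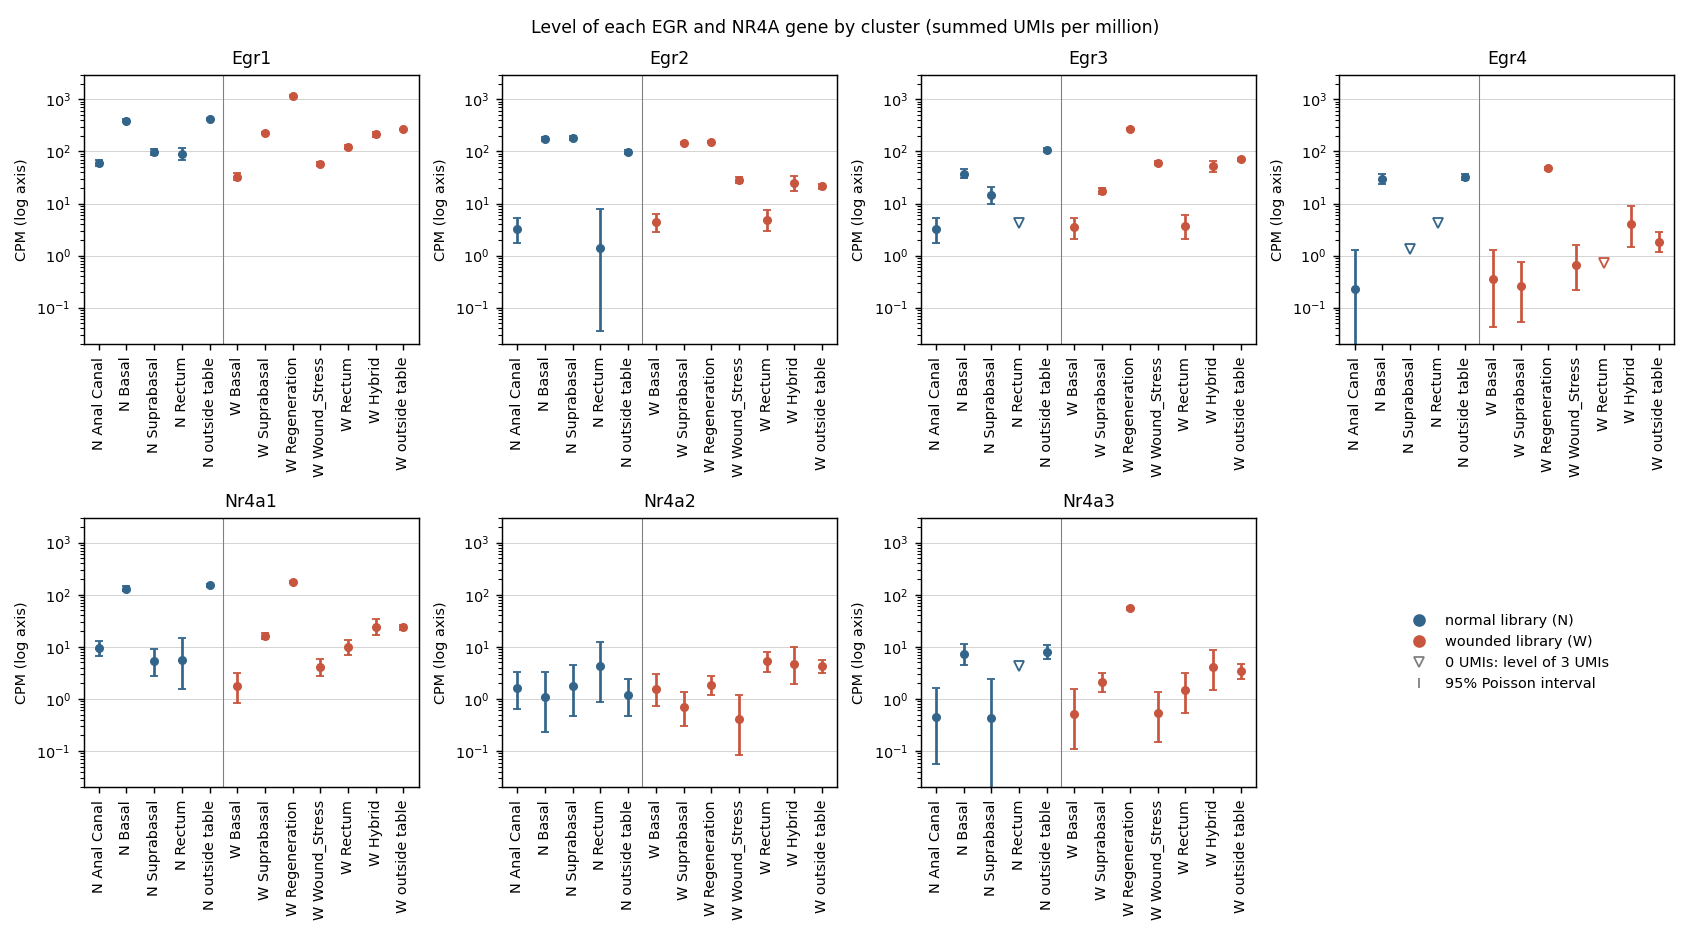
Level of each member in CPM on a log axis, for the 5 normal groups (blue) and 7 wounded groups (red), with exact 95% Poisson intervals and open triangles for groups at 0 UMIs, placed at the level of 3 UMIs. Regeneration cells held the highest point for Egr1, Egr3, Egr4, Nr4a1 and Nr4a3, while Egr2 stood between 145 and 181 CPM in 4 clusters of both libraries.

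Egr2, a factor of differentiation and of Schwann cell myelination, followed another order. It stood at 181 CPM (164 to 199) in normal Suprabasal, 173 CPM (158 to 189) in normal Basal, 150 CPM (143 to 157) in Regeneration and 145 CPM (138 to 152) in wounded Suprabasal cells. Intervals overlapped within each of these normal and wounded pairs, and the normal pair lay just above the wounded pair. Wound_Stress cells followed at 28.4 CPM (24.7 to 32.5). Both clusters of anal canal profile were lower still, with 3.2 CPM in normal Anal Canal and 4.36 CPM in wounded Basal cells. Rectum cells held 1 UMI in the normal library, a level of 1.42 CPM, and 4.87 CPM in the wounded library. The thinned share was 30.6% of normal Suprabasal, 28.6% of normal Basal, 26.6% of wounded Suprabasal and 25.5% of Regeneration cells, against 0.252% of normal Anal Canal cells. None of the 60 normal Rectum cells held it, with an exact upper limit of 5.96%. Sox10, the defining gene of the Schwann lineage, had 1 UMI in all named clusters, in Wound_Stress cells (0.134 CPM). Other genes of the Schwann list were detected, and the list of 6 summed to between 13.6 CPM in normal Suprabasal and 45.5 CPM in wounded Rectum cells.

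Egr3, a close relative of Egr2, had its 3 highest levels among named clusters in wounded ones. It reached 267 CPM (258 to 276) in Regeneration cells, 60 CPM (54.6 to 65.9) in Wound_Stress and 51.9 CPM (41.0 to 64.9) in Hybrid cells, with overlapping intervals in the last pair. Normal Basal cells held 37.7 CPM (30.7 to 45.8), which overlapped Hybrid cells. Suprabasal cells were close to each other in both libraries, at 14.5 CPM in the normal and 17.6 CPM in the wounded, and Anal Canal, wounded Basal and wounded Rectum cells lay between 3.2 and 3.65 CPM. Egr3 was not seen in normal Rectum cells, where 3 UMIs would be 4.26 CPM. Wound_Stress was the cluster in which Egr3 held more UMIs (448) than Egr1 (432).

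Egr4, the least abundant of the EGR genes, was close to absent from the named clusters outside a pair of them. Among cells outside the authors' table, a normal anal gland-like set described below held it at 46.5 CPM (40.1 to 53.7). Regeneration cells held 47.1 CPM (43.4 to 50.9) and normal Basal cells 29.9 CPM (23.8 to 37.2), and Hybrid cells followed at 4.05 CPM. No other named cluster passed 0.670 CPM, and normal Suprabasal and both Rectum clusters held 0 UMIs, where 3 UMIs would be 1.31, 4.26 and 0.730 CPM. Few cells carried it. In normal Basal cells its 81 UMIs lay in 5.06% of cells, up to 20 in a single cell, and in Regeneration cells 89.7% of its UMIs lay in the richest 10% of cells, up to 48 in a single cell.

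Nr4a1, the most abundant nuclear receptor of the family, had the same leading named clusters as Egr4 with higher levels. Normal anal gland-like cells outside the authors' table lay higher still, at 197 CPM (184 to 211). Nr4a1 stood at 175 CPM (168 to 182) in Regeneration and 130 CPM (117 to 144) in normal Basal cells. In Hybrid cells it was at 24.3 CPM (17 to 33.6) and in wounded Suprabasal cells at 16.2 CPM (13.9 to 18.6), the last pair overlapping. All other named clusters were between 1.74 CPM in wounded Basal and 9.73 CPM in wounded Rectum cells. Thinned shares were 27.1% of Regeneration and 14.9% of normal Basal cells, against 0.546% of normal Suprabasal and 0.355% of wounded Basal cells.

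Nr4a3 was highest in Regeneration cells, at 54.8 CPM (50.8 to 58.9), where 9.84% of thinned cells held it. Among the named clusters, normal Basal cells were next at 7.39 CPM (4.52 to 11.4), then Hybrid cells at 4.05 CPM and wounded Suprabasal cells at 2.07 CPM. No other named cluster passed 1.46 CPM. The Hybrid levels came from mixed cells, by clusters rebuilt without immediate-early genes as described below. The 159 Hybrid cells in a mostly Hybrid cluster held 2.09 CPM of Egr4, 5.22 of Nr4a1 and 0 of Nr4a3. The 52 that joined Wound_Stress cells held 40.3 CPM of Egr4 (4 UMIs) and 30.2 of Nr4a3 (3 UMIs). The 57 in a cluster most like normal Basal cells held 71.2 CPM of Nr4a1. Nr4a2 differed from all other members. In the named clusters it was nowhere above 5.35 CPM (3.35 to 8.10), its level in wounded Rectum cells, and its 17 normal and 73 wounded UMIs in named cells leave its order among the other clusters unresolved.

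The make-up of the 7 genes differed between clusters, as did their totals. Egr1 gave 50.6% of the member UMIs of normal Basal, 62.9% of Regeneration and 88.7% of normal Rectum cells. Egr2 gave 60.5% in normal Suprabasal and 35.7% in wounded Suprabasal cells. Egr3 gave 39.5% in Wound_Stress against 14.2% in Regeneration cells, and Nr4a1 gave 16.9% in normal Basal against 9.32% in Regeneration cells. Over all 7 genes the summed level was 1878 CPM (1854 to 1902) in Regeneration, 768 CPM (736 to 802) in normal Basal and 44.8 CPM (39.5 to 50.6) in wounded Basal cells.

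**Figure D2:**
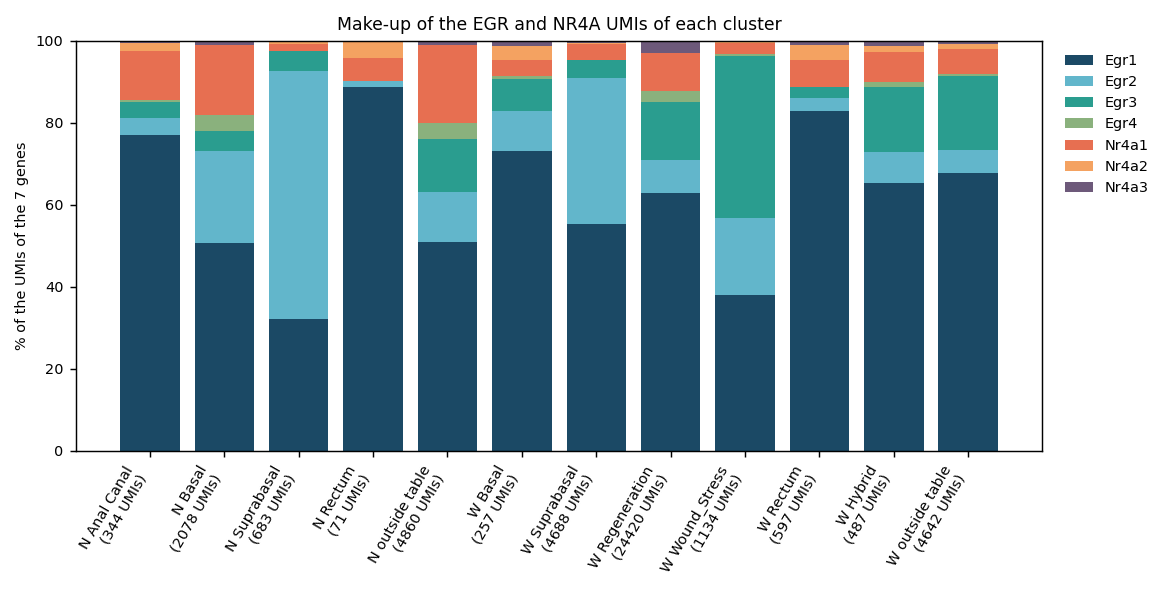
Share of each member in the EGR and NR4A UMIs of each group, in percent, with the number of member UMIs under each bar (71 to 24420 in the named clusters). Egr2 takes the largest part in normal Suprabasal cells (60.5%) and Egr3 in Wound_Stress cells (39.5%), while Egr1 leads in every other bar.

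Members were also counted per cell. Of 986 thinned Regeneration cells, 9.23% held none of the 7 genes and 7.61% held 4 or more. Of 255 normal Basal cells, 46.7% held none and 1.18% (3 cells) held 4 or more. Wounded Basal and normal Anal Canal cells held none in 93.1% and 87.9%. Regeneration cells most often held 1 member (31.9%) or 2 (34.1%), and 17.1% held 3. In the anal canal profile most cells held none at this depth.

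**Figure D3:**
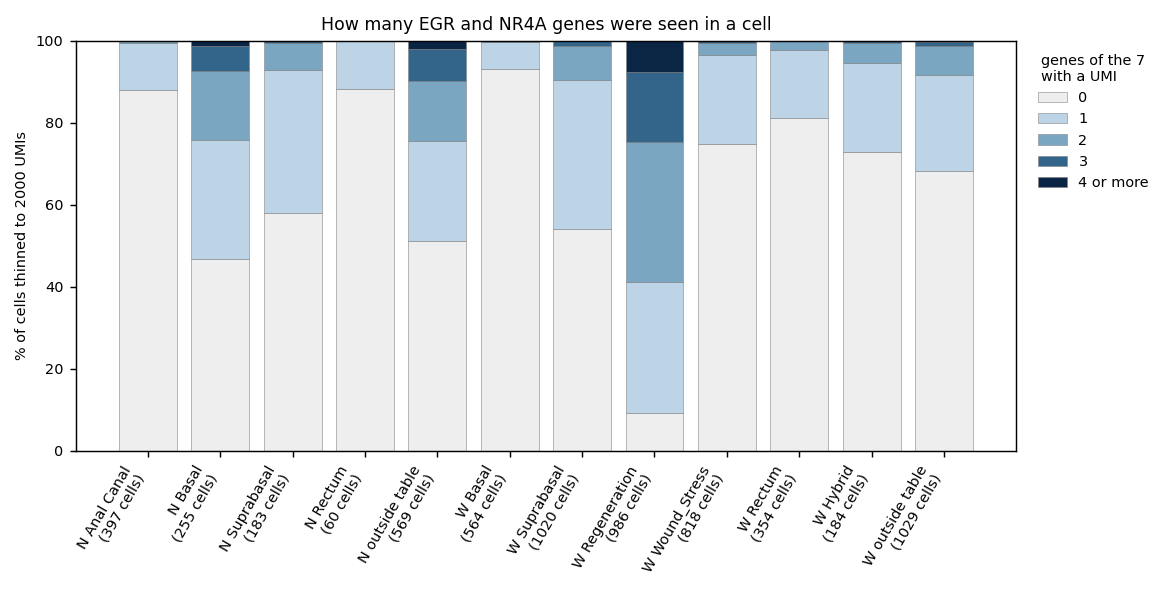
Percent of cells, each thinned to 2000 UMIs, that held 0, 1, 2, 3 or at least 4 of the 7 genes, by group, with the number of cells under each bar. The bar of Regeneration cells has the smallest part without a member (9.23%) and the largest with 4 or more (7.61%).

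Within normal Basal cells Nr4a1 followed Egr1 from cell to cell, while in Suprabasal cells Egr2 did not. In normal Basal cells, Nr4a1 was seen in 35.3% (25.2 to 46.4) of the 85 cells with Egr1 and in 4.71% (2.1 to 9.1) of the 170 without, both thinned. Egr2 was seen in 37.6% and 24.1% of the same cells. In Suprabasal cells Egr2 was seen in cells with and without Egr1 in like shares, with 30.0% and 30.7% in the normal and 27.6% and 26.3% in the wounded library. In Regeneration cells, where most cells held Egr1, Nr4a1 was seen in 29.6% of cells with Egr1 and 17% of cells without, and Egr3 in 36.5% and 30.5%. Cells share their library and cluster, so these shares describe the cells and were not tested.

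In the normal library the question was how the TZ clusters compare with the anal canal. Basal and Suprabasal cells together were higher than Anal Canal cells in all 5 members with at least 50 UMIs over both groups, the minimum for a gene to be compared. Higher or lower means at least 2-fold, a rule that 8.09% of all 9157 genes compared passed upwards. A gene that reached the minimum only through the group where it was high could hardly have come out otherwise, so counts of members are descriptions throughout. The log2 ratio was 5.79 (5.03 to 6.67, exact 95% binomial interval) for Egr2, 2.96 (2.49 to 3.47) for Nr4a1 and 2.08 (1.88 to 2.27) for Egr1. Of the other immediate-early genes, which include Fos, Jun and Atf3, 19 of 27 were higher and none lower, with a median log2 ratio of 1.44 against -0.12 over all genes.

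Within the TZ clusters, Suprabasal cells were level with Basal cells in Egr2 and lower in the other members compared. Nr4a2 and Nr4a3 had too few UMIs to be compared. Compared with Basal cells, 4 of 5 members were lower, where 13.8% of all genes were. The log2 ratio was -4.63 (-5.60 to -3.81) for Nr4a1, -2.01 (-2.23 to -1.80) for Egr1 and -1.38 (-2.0 to -0.80) for Egr3. Egr4, at 0 UMIs in Suprabasal cells, gave -4.51 when computed with 3 UMIs, and the exact upper limit was -4.18. Egr2 was at 0.06 (-0.13 to 0.26), an interval that leaves out a 2-fold difference either way. Of the other immediate-early genes 23 of 26 were lower, with a median of -1.92. Srf, the upstream factor, was lower by a log2 ratio of -1.23 and Nab2, the corepressor, by -1.05, and none of the other 17 upstream and partner genes compared passed 2-fold. Beside this, 3 of 11 heat shock genes were lower and 1 higher, and median UMIs per cell were 9971 in Basal and 11543 in Suprabasal cells.

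Normal Rectum cells held little but Egr1. Against the other named normal cells 4 of 5 members were lower, where 16.1% of all genes were, and Egr1 was at -0.87. The summed log2 ratio was -1.72. Rectum cells held 101 CPM over the 7 genes, against 78.5 CPM in Anal Canal, 299 CPM in Suprabasal and 768 CPM in Basal cells. Egr2 was at -6.07 on 1 UMI in 63 Rectum cells, so its size is poorly fixed.

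In the wounded library, Regeneration cells held by far the highest summed level of the named clusters. Against wounded Basal cells all 6 members compared were higher, with log2 ratios of 5.17 for Egr1, 5.11 for Egr2, 6.26 for Egr3, 7.08 for Egr4, 6.65 for Nr4a1 and 6.71 for Nr4a3, where 10.8% of all genes were higher. Of the other immediate-early genes 25 of 27 were higher, with a median of 3.44. Fos stood at 2671 CPM in Regeneration and 102 CPM in wounded Basal cells, and Jun at 3488 and 142 CPM. Upstream factors did not move as a group, with 2 of 20 higher, 2 lower and a median of -0.01. Srf was one of those higher, at 2.97, from 2.8 to 21.9 CPM. Of 12 heat shock genes 6 were higher and 1 lower, Dnajb1 by 2.65 and Hspa1a by 2.35, and their part in the members' levels was not tested.

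Wound_Stress cells, which the study sets beside Regeneration cells, did not share these levels. All 6 members compared were lower than in Regeneration cells, where 5.33% of all genes were. The log2 ratio was -2.15 for Egr3 and -2.40 for Egr2, against -4.35 for Egr1, -5.44 for Nr4a1, -6.13 for Egr4 and -6.67 for Nr4a3. All 27 other immediate-early genes compared were lower, with a median of -3.68, and 6 of 12 heat shock genes. The median mitochondrial share was 10.95% in Wound_Stress and 5.91% in Regeneration cells, and median UMIs per cell were 8532 and 12616.

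Taken as a pair against the other named wounded cells, Regeneration and Wound_Stress cells were higher in 5 of 7 members, where 6.31% of all genes were, and the summed log2 ratio was 2.25. The pair joins the highest and 1 of the lowest clusters, and the summed ratio was 1.28 when clusters were rebuilt without the immediate-early genes and named anew by the most frequent deposited name, which moved 288 Regeneration cells to Suprabasal. Egr2, at 0.46, became -0.14 there.

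Wounded Suprabasal cells were higher than wounded Basal cells in all 4 members compared, where 8.54% of all genes were. Egr2 was at 5.05 (4.49 to 5.68), Nr4a1 at 3.21, Egr1 at 2.77 and Egr3 at 2.34. In the normal library the same pair of names had Egr1, Egr3 and Nr4a1 lower. The names were shown above to hold cells of different profiles. Wounded Basal cells resemble the normal Anal Canal, and 512 of the 1032 wounded Suprabasal cells fell into a rebuilt cluster most like normal Basal cells.

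Wounded Rectum cells were lower in 6 of 7 members, where 15.9% of all genes were, and higher in 1, Nr4a2, where 16.0% were. Nr4a2 was at 2.04 (1.25 to 2.79), from 22 UMIs in Rectum against 51 in all other named wounded cells. The remaining members ranged from -4.88 for Egr3 to -2.0 for Egr1. Egr4, at 0 UMIs, gave -4.45 when computed with 3 UMIs, with an exact upper limit of -4.15. Lower too were 18 of 27 other immediate-early genes. The other named cells include Regeneration cells, which held 24420 of their 30986 member UMIs, so these ratios lean on that cluster. Summed over the 7 genes, Rectum cells held 145 CPM. Wound_Stress cells held 152 CPM and wounded Basal cells 44.8 CPM, while wounded Suprabasal and Hybrid cells held 405 and 328 CPM.

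**Figure D4:**
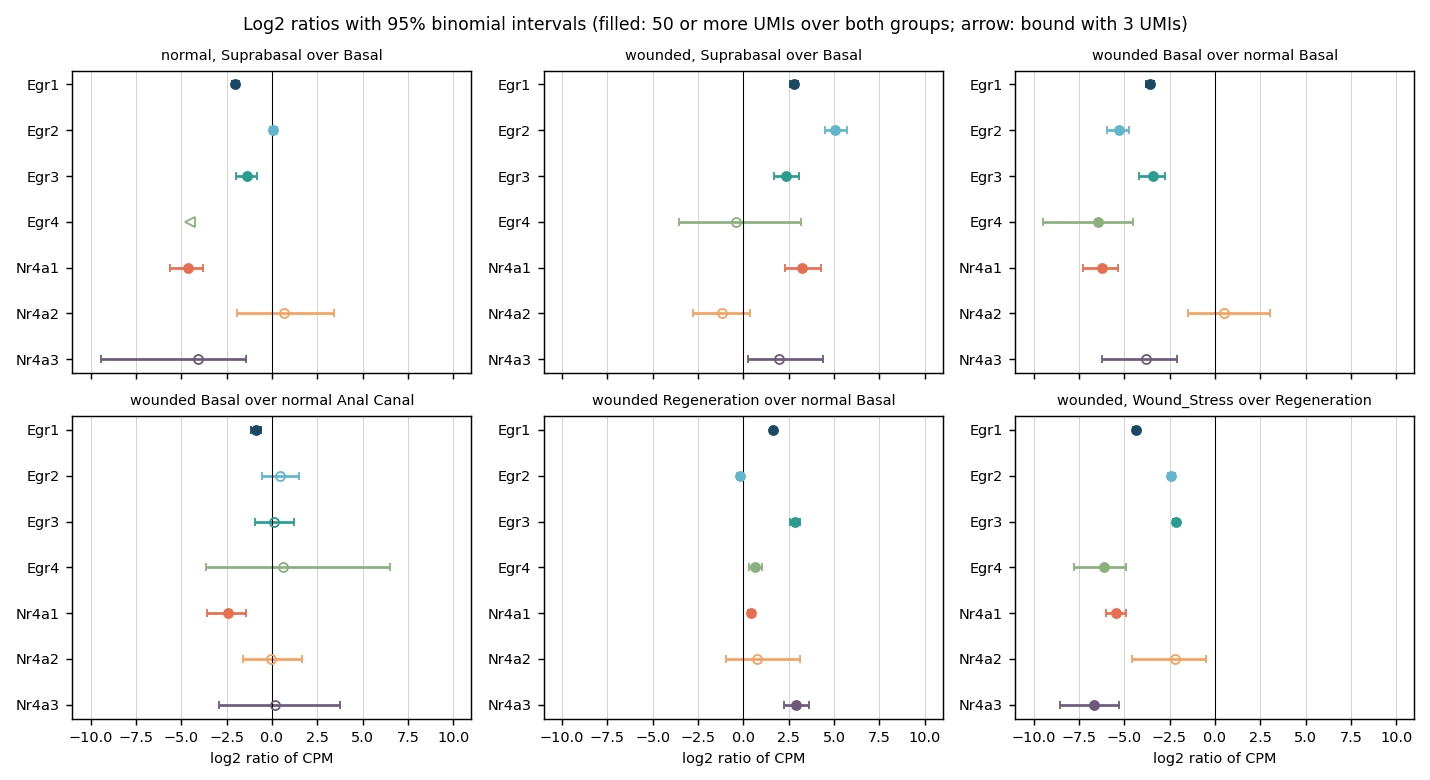
Log2 ratios of the members' levels in 6 comparisons, with exact 95% binomial intervals; filled points have at least 50 UMIs over both groups, open points fewer, and arrows are bounds computed with 3 UMIs. Egr2 stays at 0.06 in normal Suprabasal over Basal while the other compared members lie at -1.38 or lower, and wounded Regeneration over normal Basal spreads from -0.21 for Egr2 to 2.89 for Nr4a3.

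Between the libraries, the comparison by name and the comparison by profile gave different answers. The file headers name Cell Ranger 3.1.0 for the normal library (31054 features) and 4.0.0 for the wounded one (32285 features). Condition and counting software thus cannot be told apart in any ratio between the libraries. By name, wounded Basal cells were lower than normal Basal cells in all 5 members compared, where 12.1% of all genes were, with log2 ratios from -6.43 for Egr4 and -6.22 for Nr4a1 to -3.44 for Egr3. This comparison sets cells like the anal canal against TZ cells. By profile, wounded Basal over normal Anal Canal cells gave -0.89 (-1.16 to -0.61) for Egr1 and -2.43 (-3.59 to -1.40) for Nr4a1, the 2 members with enough UMIs. Of these 1 was lower at 2-fold, where 6.29% of all genes were. Among other immediate-early genes 10 of 24 were lower and 1 higher, and Srf was at -2.56.

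Wounded Regeneration cells were the named wounded cluster nearest in profile to normal Basal cells (r = 0.655). Against normal Basal cells they were higher in 3 of 6 members, where 10.6% of all genes were. Cells outside the authors' table were not part of this matching. The anal gland list summed to 3106 CPM in Regeneration and 732 CPM in normal Basal cells, so the ratios may also carry a difference in cell type, which was not tested. Egr3 was at 2.83 (2.54 to 3.12), Nr4a3 at 2.89 (2.25 to 3.61) and Egr1 at 1.60. The others were within 2-fold, with Egr4 at 0.65, Nr4a1 at 0.43 and Egr2 at -0.21 (-0.35 to -0.06). Of the other immediate-early genes 8 of 27 were higher and 1 lower, with a median of 0.70. None of 19 upstream factors and none of 7 partners passed 2-fold, while 3 of 12 heat shock genes were higher, Hspa1b by 2.31, Hsph1 by 2.05 and Dnaja1 by 1.35.

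Suprabasal cells were higher in the wounded library in 2 of 4 members, where 14.3% of all genes were, with Egr1 at 1.21 (1.02 to 1.42) and Nr4a1 at 1.62 (0.78 to 2.60). Egr3 was at 0.29 (-0.25 to 0.86) and Egr2 at -0.32. The name joined different cells, since 512 of the 1032 wounded Suprabasal cells fell into a rebuilt cluster most like normal Basal cells, with Cst6 at 797 CPM against 87278 CPM in normal Suprabasal cells. The 468 in the rebuilt cluster most like normal Suprabasal cells (r = 0.859) held 270 CPM of Egr1, against 96.4 CPM in normal Suprabasal cells, and 86429 CPM of Cst6. The summed ratio of 0.44 was 1.14 with clusters named anew, where the first of these rebuilt clusters took the name Suprabasal with its 285 cells deposited as Regeneration. In Rectum cells only Egr1 had enough UMIs, and it was at 0.43 (0.05 to 0.83), so 0 of 1 member was higher, where 9.97% of all genes were. Pooling all named stratified cells of each library, 3 of 7 members were higher, where 11.8% of all genes were, with Nr4a3 at 3.0, Egr3 at 2.79 and Egr1 at 1.58, and Egr2 at 0.10 (-0.01 to 0.20). The pooled value also depends on how many cells of each cluster a library holds.

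The deposited names may themselves carry these genes, so the wounded cells were clustered again with the members and the other immediate-early genes left out, a step chosen after the values had been seen. One rebuilt cluster of 863 cells was most like normal Basal cells (r = 0.749, next 0.274), and it joined 285 cells deposited as Regeneration with 512 deposited as Suprabasal. In this cluster the keratins were close between the names. Krt15, a basal stem cell keratin, stood at 1991 and 2255 CPM, Krt17 at 2210 and 2123 CPM, and the duct gene Cst6 at 819 and 797 CPM in Regeneration and Suprabasal cells. Less abundant genes lay further apart, with Slco2b1 at a log2 ratio of -0.82 and Sostdc1 at -0.50. Gpc3, an anal canal gene in the study, was at 0.57 (-0.07 to 1.21). Most members lay further apart still. Egr1 was at 1266 against 156 CPM (log2 3.02, 2.90 to 3.14), Egr3 at 157 against 13.1 CPM (3.58, 3.18 to 4.0) and Nr4a1 at 180 against 10.8 CPM (4.07, 3.63 to 4.53). Egr4 had 129 against 1 UMI and Nr4a3 174 against 3, and Egr2 was again the exception, at 226 against 160 CPM (0.50, 0.34 to 0.65). No share over all genes was computed for this split. Other immediate-early genes were higher in 25 of 27 cases in the cells named Regeneration, with a median of 2.75. In the same cells Dnajb1 was at 3.11, Hspa1a at 1.27 and Hspa8 at 0.50 among heat shock genes, and Il33, an alarmin, at 1.87. Median UMIs were 10510 against 7953 and median mitochondrial shares 5.61% against 9.92%. If the authors' clustering used these genes, the split by name could not have come out otherwise, so it is a description.

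**Figure D5:**
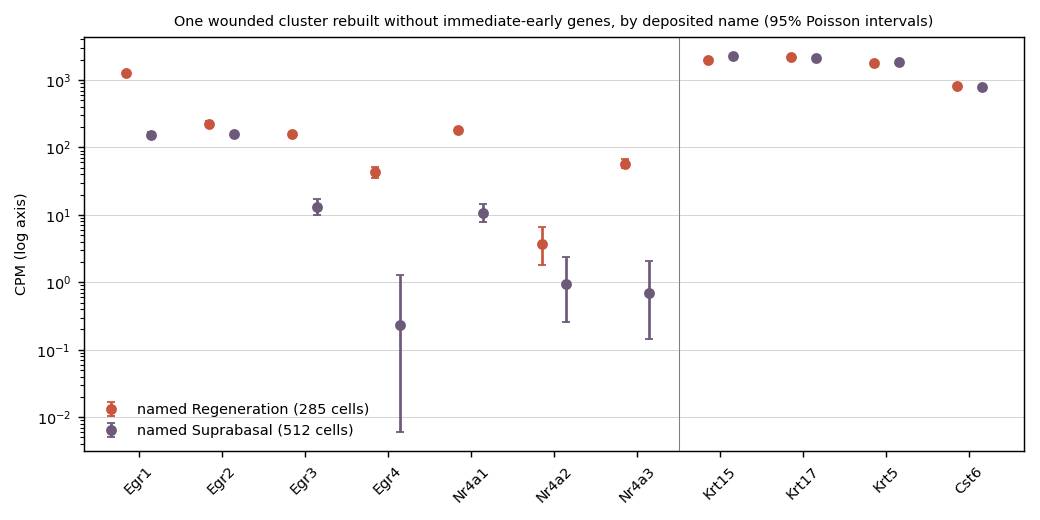
CPM on a log axis, with 95% Poisson intervals, in the 285 cells named Regeneration and the 512 named Suprabasal of the rebuilt wounded cluster that is most like normal Basal cells. Krt15, Krt17, Krt5 and Cst6 lie close together, while Egr1 (1266 and 156 CPM), Egr3, Egr4, Nr4a1 and Nr4a3 lie far apart and Egr2 does not (226 and 160 CPM).

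Against normal Basal cells, this whole rebuilt cluster was mixed. Egr1 was at 593 against 389 CPM (log2 0.61, 0.51 to 0.71), Egr3 at 70.1 against 37.7 CPM (0.90, 0.59 to 1.21) and Nr4a3 at 23.8 against 7.39 CPM (1.68, 1.02 to 2.43). Nr4a1 lay the other way, at 79.6 against 130 CPM (-0.71, -0.90 to -0.52), as did Egr4 (-0.83, -1.25 to -0.42), and Egr2 was level at 0.06 (-0.10 to 0.21). With the split by name undone in this cluster, Nr4a3 lay furthest from normal Basal cells, on 184 against 20 UMIs. No share over all genes was computed for this comparison. A second rebuilt cluster of 650 cells, 639 of them Regeneration, was also most like normal Basal cells, less closely (r = 0.596). It held 1218 CPM of Egr1, 317 CPM of Egr3 and 58.5 CPM of Nr4a3, with an anal gland list of 4006 CPM. Another, of 994 cells with 826 Wound_Stress cells, was most like normal Basal cells too (r = 0.555). It held 106 CPM of Egr1 and an anal gland list of 1955 CPM. The answer thus differed between the rebuilt clusters.

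Cells outside the authors' table differed between the libraries in their ratio to the pooled named cells. In the normal library they were higher than named cells in 5 of 6 members, where 10.8% of all genes were, Egr3 by 2.83, Egr4 by 1.99 and Nr4a1 by 1.92, with Egr2 at 0.15 (-0.01 to 0.30). In the wounded library they were lower than named cells in 4 of 7 members, where 9.93% of all genes were, and higher in 1, Nr4a2 at 1.35, where 12.1% were. Egr4 was at -2.97 and Nr4a3 at -2.37. These ratios depend on which named clusters are pooled. Regeneration cells held 24420 of the 31583 member UMIs of the named wounded cells. Summed over the 7 genes, wounded cells outside the table held 391 CPM, against 1878 CPM in Regeneration and 405 CPM in Suprabasal cells. The other named wounded clusters held 44.8 to 328 CPM. Normal cells outside the table held 812 CPM, against 768 CPM in Basal cells and 78.5 to 299 CPM in the other named normal clusters. Of the other immediate-early genes, 19 of 28 were higher in cells outside the table than in named cells in the normal library. In the wounded library 11 of 27 were lower. The largest sets of these cells were anal gland-like, with 329 normal and 424 wounded cells. Their clusters held 356 normal and 631 wounded cells, and the named cells among them are left out of the levels given here. More of the wounded than of the normal cluster is thus left out, and the part of this in the difference was not tested. Normal anal gland-like cells held 436 CPM of Egr1, 197 CPM of Nr4a1 and 46.5 CPM of Egr4, and wounded ones 93.8, 5.6 and 0.6 CPM. Egr3 was closer, at 142 and 96.3 CPM, so that Egr3 and Egr1 had nearly equal levels in wounded anal gland-like cells, as in Wound_Stress cells. Another large set did not share this direction. A set of 302 wounded cells carried the hair follicle genes Lhx2 (194 CPM) and Lgr5 (101 CPM). Its cluster of 410 cells, which includes named cells, was called enteroendocrine-like (gut hormone cells) by its markers. That name was not used for these 302 cells, which held 2.01 CPM of the gut hormone gene Pyy. They held 707 CPM of Egr1 and 65.6 CPM of Nr4a1, and the 186 normal hair follicle-like cells 420 and 53.5 CPM. Fibroblast-like cells (65 normal and 192 wounded) held little Egr2 and Egr3. Their Nr4a2 was at 15.2 CPM (5.59 to 33.1, on 6 UMIs) and 12.1 CPM (7.29 to 18.9, on 19 UMIs). Both intervals overlapped those of Rectum cells in the same library (0.879 to 12.5 CPM in the normal, 3.35 to 8.10 CPM in the wounded). The normal set was mixed, with the mural cell genes Rgs5 at 913 CPM and Myh11 at 791 CPM. An unnamed wounded set of 104 cells was led by the mural cell genes Rgs5, Myh11 and Des. It held 21.1 CPM of Nr4a2 (11.8 to 34.7), the highest level among these sets and the named clusters, with an interval that overlapped both fibroblast-like sets.

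Within clusters, members moved with depth and mitochondrial share in different ways. Summed over the 7 genes, normal Basal cells above the median UMI count were at a log2 ratio of 0.40 to those below, and those above the median mitochondrial share at -0.66. In Regeneration cells both ratios were -0.18. In wounded cells outside the table, which mix cell types, the ratio by mitochondrial share was -1.05. Their anal gland-like cells had a median mitochondrial share of 9.30%, those with hair follicle genes 6.17% and fibroblast-like cells 5.44%. This split therefore also divides cell types, and it cannot be read beside the summed ratio of these cells to named wounded cells (-0.90). Single members moved further, as Egr4 in normal Basal cells was at 4.15 by UMIs and -5.82 by mitochondrial share, on 81 UMIs in few cells, and Nr4a1 at 0.81 and -1.24. The part of depth and RNA quality in the levels was not tested.

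The genes whose levels ran most like each member over the 10 named clusters were ranked by Pearson's r of log2(CPM + 10) over 11606 genes. Egr1 ran with Klf6 (0.971), Dusp8, Jun, Fosb and Pim3, of which Klf6, Jun and Fosb are in the list of other immediate-early genes. Egr2 ran with Stbd1 (0.977), Tle1, Tpd52l1, Fhdc1 and Pfkp, none of which is in the immediate-early list. Egr3 ran with Pde4b (0.983), Bag4, Scd1, Osbpl1a and Cd200. Egr4 ran with Saa3 (0.986), Cxcl1, Klf11, Tnfaip3 and Serpina3n, and Nr4a1 with Cxcl1 (0.973), Nfkbia, Cxcl10, Gm12840 and Csrnp1. Of these, Saa3 and Serpina3n encode acute-phase proteins, Cxcl1 and Cxcl10 chemokines, and Tnfaip3 and Nfkbia inhibitors of NF-kappaB. Nr4a3 ran with 1200007C13Rik (0.978), Ifrd1, Saa2, Ndel1 and Irs2. Among members, Egr4 and Nr4a1 were most alike (0.97) and Egr2 and Nr4a3 least (0.49). With 10 clusters that share 2 libraries, these values rank genes and do not test them.

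Among upstream factors, Srf stood at 27.7 CPM in normal Basal and 21.9 CPM in Regeneration cells, the named clusters with the highest summed members. It did not follow the members elsewhere, at 16.4 CPM in normal Anal Canal, 4.4 CPM in wounded Suprabasal, 4.7 CPM in Hybrid, 3.8 CPM in Wound_Stress and 2.8 CPM in wounded Basal cells. Nab2 stood at 29.9 CPM in normal Basal, 16.8 CPM in Regeneration, 12.5 CPM in Wound_Stress and 7.3 CPM in wounded Basal cells. Heat shock genes summed to between 3584 and 5841 CPM over the normal groups and 5259 to 7878 CPM over the wounded groups, highest in Regeneration cells. This range of a sum was narrower than that of the 7 members, but single heat shock genes could range more widely. Hspa1a stood at 1.42 CPM (1 UMI) in normal Rectum and 207 CPM in normal Basal cells. In the wounded library it was at 42.9 CPM in Basal and 218 CPM in Regeneration cells. Collagenase digestion was part of the preparation of both libraries. Its part in the members' levels was not tested.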

How the data were processed

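Mouse anorectal cells were sequenced as 1 normal and 1 wounded library. The authors deposited raw UMI counts per gene and barcode from Cell Ranger, and per library a table with cluster names and natural log values of 1 plus a whole number, whose making is not stated in the sources used here. The names were used, and levels came from the counts. Per the submitters' processing notes reads were processed with Cell Ranger 3.1.0 on mm10, and clusters with Seurat 3.2.2. The file headers name Cell Ranger 3.1.0 (normal) and 4.0.0 (wounded). Whether counting used strand is not stated in the sources used here.

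Cells with more than 200 and fewer than 5000 genes and under 25% mitochondrial UMIs passed, as in the study. UMIs were summed per cluster and divided by their total (CPM). Intervals were exact at 95%, Poisson for levels, binomial for ratios and Clopper-Pearson for shares of cells thinned to 2000 UMIs. A group at 0 UMIs was given 3 UMIs for a bound. Genes with at least 50 UMIs over both groups were compared at 2-fold. For re-clustering, Seurat 5.3.0 in R 4.3.3 used 2000 variable features, 10 principal components and a resolution of 0.2, without immediate-early genes. Doublets were not called. Clusters outside the table were called after their marker genes, except the set of 302 wounded cells, whose cluster name was not used. Python 3.11.15, numpy 2.4.6, scipy 1.17.1, pandas 2.3.3 and matplotlib 3.10.9 were used. The genes named were the 7 members, abundant genes of the lists, and the 5 genes most alike in pattern to each member with at least 100 UMIs. Scripts were tested on simulated data with known answers. The members and lists were chosen with earlier results of these data known.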

Additional observations from a re-analysis of the deposited data

Results flagged for a closer look

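Suprabasal over Basal cells lay in opposite directions in the 2 libraries for 4 members. The log2 ratio for Egr1 was -2.01 in the normal and 2.77 in the wounded library, for Egr3 -1.38 and 2.34, for Nr4a1 -4.63 and 3.21, and for Nr4a3 -4.08 and 1.99, the last on fewer than 50 UMIs over both groups in each library. The difference was not tested, since each condition is 1 library. The deposited names differ between the libraries, with wounded Basal cells most like normal Anal Canal cells and wounded Suprabasal cells mixed.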

How the results depend on the processing

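Over the 7 members summed, no comparison changed direction under any alternative run. With cells under 10% mitochondrial UMIs, the log2 ratio was -1.52 for normal Suprabasal over Basal, 2.35 for wounded Regeneration and Wound_Stress over the other named cells, -2.71 for wounded Rectum over the others, 0.63 for wounded over normal Suprabasal and 1.44 for all stratified cells. With clusters named anew it was -1.22 for normal Suprabasal over Basal, 1.28 for Regeneration and Wound_Stress over the others, 1.14 for wounded over normal Suprabasal, 4.03 for wounded Suprabasal over Basal, -3.14 for Wound_Stress over Regeneration and 1.38 for wounded Regeneration over normal Basal. Here the rebuilt cluster of 863 cells most like normal Basal cells took the name Suprabasal by majority, with 285 Regeneration cells. Names changed for fewer normal than wounded cells, as 901 of 939 (96.0%) and 3555 of 4147 (85.7%) kept theirs. With the mean of CPM per cell in place of summed UMIs it was 2.57 for normal Basal and Suprabasal over Anal Canal, -1.05 for normal Suprabasal over Basal, 1.14 for normal cells outside the table over named cells, 2.08 for Regeneration and Wound_Stress over the others, -2.18 for wounded Rectum, -0.53 for wounded cells outside the table, 0.19 for wounded over normal Suprabasal, -1.10 for wounded Basal over normal Anal Canal, 1.48 for wounded Regeneration over normal Basal and 1.16 for all stratified cells. Without the 5% of cells deepest in UMIs it was -2.09 for normal Rectum, 1.28 and -0.94 for normal and wounded cells outside the table and 1.20 for all stratified cells. Of the single members, Egr2 in Regeneration and Wound_Stress over the others turned from 0.46 to -0.14 with clusters named anew, where those Regeneration cells count as Suprabasal. Under the mitochondrial limit 11 member ratios moved without turning, and 19 with clusters named anew. With the mean per cell 27 moved, and 7 without the deepest cells. Shares of cells depended on depth. At 1000 UMIs per cell 41 shares moved and 43 stayed the same, and at 4000 UMIs 40 and 44. Without thinning 55 moved and 29 stayed the same. Egr2 was then seen in 70.6% of normal Suprabasal cells (30.6% thinned) and Egr1 in 63.0% of normal Basal cells (33.3% thinned). The 5 comparisons of Regeneration over Basal, Wound_Stress over Regeneration, wounded Basal over normal Anal Canal, wounded Regeneration over normal Basal and all stratified cells were chosen after seeing the data. No paired analysis was possible because each condition is 1 library, and no library could be left out. Depth limits Nr4a2, and Egr4 in Suprabasal and Rectum cells.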
